A study of Mus musculus with 7 samples.

Results

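The selenoproteins and glutathione peroxidases described here are 10 mouse genes, Gpx1, Gpx3, Gpx4, Selenop, Selenow, Selenon, Selenom, Txnrd1, Txnrd2 and Dio2. They were taken by gene symbol from a table of 53819 genes measured by RNA sequencing of the quadriceps, the large thigh muscle. The genes were proposed with earlier results of these libraries in view, so their differences between the groups are given as a description and support nothing beyond themselves. All 10 were among the 14935 genes that passed the filter on low counts. The comparison asked what a vector that makes IGFBP1 in the liver does to muscle. IGFBP1 is a secreted protein that binds insulin-like growth factors.

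Both groups were wild-type C57BL/6J male mice that received 200 µl of a serotype 8 adeno-associated virus at 1e+12 vector genomes per ml into a tail vein when 8 weeks old, and muscle was collected after 54 days. Mice of the 3 AAV8-IGFBP1 libraries had received AAV8-Alb-IGFBP1, and those of the 4 AAV8-Null libraries had received the control vector AAV8-Alb-Null. Both names carry Alb, the symbol of the liver gene albumin, and serotype 8 reaches mainly the liver, so the liver was the intended target. Igfbp1 transcript was nevertheless found in the muscle libraries, as given below. Nothing in the labels ties the libraries to different mice, so p-values reflect the spread among these 7 libraries alone, and that spread could be technical.

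Selenoproteins carry selenocysteine, an amino acid that is inserted at a UGA codon, which otherwise ends translation. The insertion needs a stem-loop in the 3′ untranslated region of the mRNA and a dedicated elongation factor. Glutathione peroxidases use selenocysteine to reduce peroxides with glutathione, thioredoxin reductases use it to recycle thioredoxin, and the type 2 deiodinase uses it to convert the thyroid prohormone T4 into active T3. Skeletal muscle is known for its high content of selenoprotein W, and loss of selenoprotein N causes muscle disease in humans.

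The selenocysteine codon with 15 coding-strand bases on each side is shown for each gene, because this codon is what the 10 genes have in common. The sequences are DNA from GENCODE M21 transcripts (GRCm38), read 5′ to 3′, and capitals mark the codon. For Selenop and Dio2 the first of several such codons is shown.
Gpx1, chromosome 9: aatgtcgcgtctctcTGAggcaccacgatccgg
Gpx3, chromosome 11: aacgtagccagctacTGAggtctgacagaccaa
Gpx4, chromosome 10: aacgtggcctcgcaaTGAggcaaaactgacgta
Txnrd1, chromosome 10: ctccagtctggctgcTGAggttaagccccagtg
Txnrd2, chromosome 16: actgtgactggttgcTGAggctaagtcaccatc
Selenop, chromosome 15: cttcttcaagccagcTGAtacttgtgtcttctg
Selenow, chromosome 7: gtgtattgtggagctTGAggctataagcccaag
Selenon, chromosome 4: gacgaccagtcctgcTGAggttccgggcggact
Selenom, chromosome 11: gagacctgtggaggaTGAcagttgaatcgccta
Dio2, chromosome 12: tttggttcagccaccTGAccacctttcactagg

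The place of the codon differed by enzyme class. In the peroxidases it lay in the body of the coding sequence, at codon 47 of 201 in Gpx1, codon 73 of 226 in Gpx3 and codon 73 of 197 in Gpx4. In both thioredoxin reductases it was the penultimate codon, codon 498 of 499 in Txnrd1 and codon 526 of 527 in Txnrd2, so the true stop (taa in both windows) stands after 1 further codon. Selenop held 10 such codons, between codons 59 and 377 of 380. Dio2 held 2, at codons 130 and 263 of 266. Selenow carried its codon near the start, at codon 13 of 88, and was the only one of the 10 whose coding sequence also ended in TGA. Of the 30 flanking bases, Gpx3 and Gpx4 shared 17, Gpx1 and Gpx4 shared 16 and Gpx1 and Gpx3 shared 13. Txnrd1 and Txnrd2 also shared 17, and the median over the 190 pairs of the 20 windows was 8. Selenow and Selenom shared 14, but so did the windows of Selenop codon 352 and Dio2 codon 130. Selenow and Txnrd1 shared 13, as many as Gpx1 and Gpx3. The base after the codon was g in 9 windows, c in 7, a in 3 and t in 1.

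Library totals were 39927146 to 46197214 estimated counts in AAV8-IGFBP1 and 38947493 to 51210391 in AAV8-Null (exact permutation p = 0.714, two-sided). Igfbp1, the check of the labels, had 202, 1425 and 142 counts in AAV8-IGFBP1 replicates 1 to 3, and 0, 0, 0 and 8 counts in AAV8-Null replicates 1 to 4. Its transcript was thus present in the AAV8-IGFBP1 muscle libraries, at 4.38, 34.5 and 3.14 CPM, highest in replicate 2. The source of that transcript was not tested. Igfbp1 was not called by the main edgeR test on all 7 libraries, although its groups did not overlap. It was called in 3 of the 17 alternative fits described below, those with DESeq2, the replicate block and the adipocyte covariate. A gene that did not pass the main test may therefore still differ between the groups. Skeletal muscle genes were abundant in every library, with the skeletal actin gene Acta1 at 24136 to 29032 CPM (read counts scaled to a common library total) in AAV8-IGFBP1 and 23604 to 28381 CPM in AAV8-Null. AAV8-IGFBP1 replicate 2 stood apart. Its score on principal component 1 (27.2% of the variance) was -45.2, while the other 6 libraries had scores of -12.6 to 25.7. Its brown adipocyte marker level, the mean of 4 log2 CPM values centred over the libraries, was 2.62, against -1.47 to 0.16 in the other 6 libraries. No marker gene was called in any of the 10 marker lists by edgeR, and the exact permutation p of the mean log2 level ran from 0.0857 (slow fibre, brown adipocyte and fibroblast) to 0.943 (erythroid), with endothelial, macrophage, tenocyte, hepatocyte, adipocyte and skeletal muscle fibre levels between them. The fibroblast level averaged -0.30 in AAV8-IGFBP1 and 0.22 in AAV8-Null.

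Gpx3 was the single gene of the 10 that passed the test, and Gpx3 and Gpx4 were the 2 whose AAV8-IGFBP1 libraries all lay above every AAV8-Null library. In the quasi-likelihood test of edgeR, with a threshold of 0.05 on the adjusted p, 1 of 10 was called, higher, against 0.556% of the 14935 genes tested (83 genes). Calls for higher expression made up 0.362% of genes tested (54) and calls for lower expression 0.194% (29). The count of genes called fell to 28 when AAV8-IGFBP1 replicate 1 was left out, and to 23 when replicate 2 of that group was. Leaving out AAV8-Null replicate 1 gave 19 genes, and leaving out AAV8-Null replicate 3 gave 52. Groups without overlap were found for 12.3% of genes tested, with every AAV8-IGFBP1 library above in 6.33% and below in 6.01%; of the 10, 2 lay above in this way and 0 below. DESeq2 called 3.28% of the 13766 genes to which it gave an adjusted p, limma-voom called 0.415%, and 12.6% of genes tested had an unadjusted p under 0.05 in edgeR. Nothing is read from the members' counts against these shares, since the members were chosen on this contrast. Of the 10 log2 fold changes, 7 were above 0 and 3 below, with a median of 0.10, beside -0.0007 over all genes tested.

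**Figure D1:**
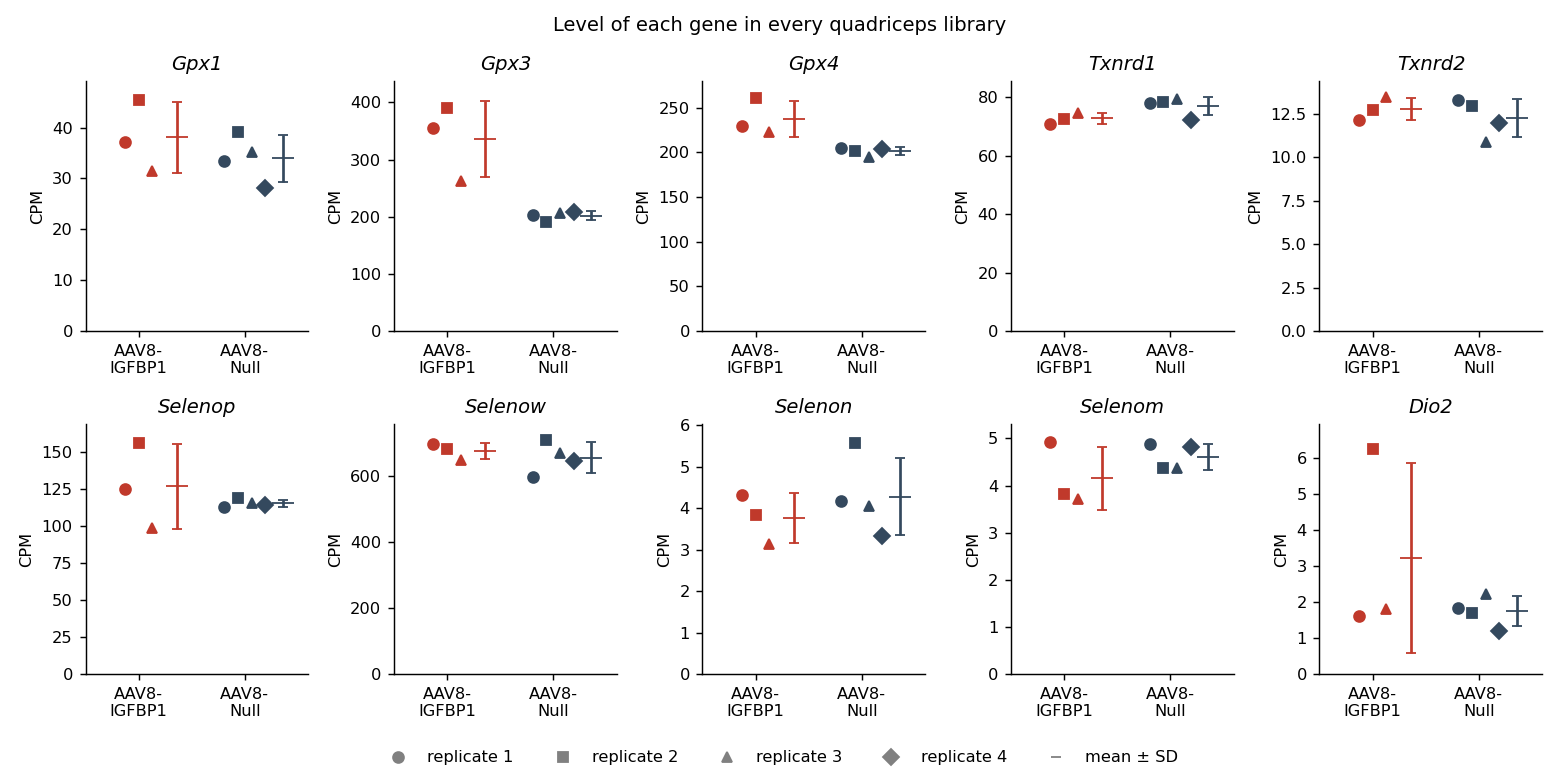
CPM of each of the 10 genes in every library, with AAV8-IGFBP1 in red at the left, AAV8-Null in dark blue at the right, symbols for the replicate number, and bars for the mean ± SD (n = 3 and 4); each axis starts at 0 and has its own scale. The groups are separate for Gpx3 and Gpx4, and Dio2 is high in AAV8-IGFBP1 replicate 2 alone.

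Gpx3 encodes the secreted glutathione peroxidase, which acts outside cells and in plasma. It had 356, 390 and 263 CPM in AAV8-IGFBP1 replicates 1 to 3, and 203, 190, 206 and 209 CPM in AAV8-Null replicates 1 to 4. The lowest AAV8-IGFBP1 library was above the highest AAV8-Null library, and the 3 AAV8-IGFBP1 libraries were spread more widely than the 4 AAV8-Null libraries. The means were 336 ± 65.8 CPM (SD, n = 3) in AAV8-IGFBP1 and 202 ± 8.34 CPM (SD, n = 4) in AAV8-Null. Gpx3 was 1.66-fold higher (log2 fold change 0.73, SE 0.12, adjusted p = 0.0399, edgeR). In bulk muscle, fewer or more cells of a type and less or more RNA per cell cannot be told apart.

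The direction of Gpx3 was the same under the 17 alternatives run, with log2 fold changes of 0.58 to 0.88, but its call was not stable. The adjusted p ranged from 1.29e-06 with DESeq2 to 0.355 with the slow fibre marker level as a covariate, and limma-voom gave 0.0535. Leaving out 1 library ended the call in 6 of 7 cases. The edgeR adjusted p was 0.147 without AAV8-IGFBP1 replicate 1 and 0.0808 when replicate 2 of that group was left out. Leaving out AAV8-Null replicates 1, 2, 3 and 4 in turn gave 0.139, 0.0974, 0.108 and 0.0735. Without AAV8-IGFBP1 replicate 3, the lowest of its group, the adjusted p was 0.00466 and the log2 fold change 0.88.

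Gpx4 encodes the peroxidase that reduces lipid hydroperoxides within membranes and so holds back ferroptosis. It had 229, 260 and 222 CPM in AAV8-IGFBP1 replicates 1 to 3, and 205, 202, 195 and 203 CPM in AAV8-Null replicates 1 to 4. All 3 AAV8-IGFBP1 libraries were above all 4 AAV8-Null libraries, by a narrower margin than for Gpx3. The means were 237 ± 20.4 CPM (SD, n = 3) in AAV8-IGFBP1 and 201 ± 4.52 CPM (SD, n = 4) in AAV8-Null, and the log2 fold change was 0.24 (SE 0.07), which did not pass (adjusted p = 0.176, edgeR). With DESeq2 the adjusted p was 0.0425, and over the other alternatives it was 0.0943 to 0.751. Gpx4 has processed pseudogenes that can take its reads. Gpx4-ps1 and Gpx4-ps2 together held 5.28% to 5.43% of the summed estimated counts in AAV8-IGFBP1 and 4.37% to 5.40% in AAV8-Null, and adding them to Gpx4 gave a log2 fold change of 0.24 (adjusted p = 0.172, edgeR).

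Gpx1 encodes the peroxidase of the cytosol and mitochondria. It had 37.2, 45.5 and 31.6 CPM in AAV8-IGFBP1 replicates 1 to 3, and 33.4, 39.1, 35.2 and 28.1 CPM in AAV8-Null replicates 1 to 4. The groups overlapped, with a log2 fold change of 0.17 (SE 0.14, adjusted p = 0.697, edgeR), which was 0.020 without AAV8-IGFBP1 replicate 2. The SD within each group was larger than the difference of the means, with a coefficient of variation of 18.4% in AAV8-IGFBP1 and 13.6% in AAV8-Null.

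The thioredoxin reductases had log2 fold changes near 0 and did not pass. Txnrd1, the cytosolic enzyme, had 70.8, 72.6 and 74.7 CPM in AAV8-IGFBP1 replicates 1 to 3, and 78.0, 78.3, 79.4 and 72.3 CPM in AAV8-Null replicates 1 to 4. AAV8-Null replicates 1, 2 and 3 lay above all AAV8-IGFBP1 libraries, and replicate 4 lay among them. The log2 fold change of Txnrd1 was -0.08 (SE 0.06, adjusted p = 0.595, edgeR). Txnrd2, the mitochondrial enzyme, had 12.2, 12.7 and 13.4 CPM in AAV8-IGFBP1, and 13.3, 12.9, 10.9 and 12.0 CPM in AAV8-Null, so the groups overlapped. Its log2 fold change was 0.06 (SE 0.09, adjusted p = 0.849, edgeR).

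Selenop encodes selenoprotein P, the plasma protein that carries selenium from the liver to other tissues. In muscle it had 125, 156 and 98.8 CPM in AAV8-IGFBP1 replicates 1 to 3, and 113, 119, 116 and 114 CPM in AAV8-Null replicates 1 to 4. The AAV8-IGFBP1 libraries lay on both sides of the narrow AAV8-Null range, and the coefficient of variation was 22.7% in AAV8-IGFBP1 and 2.23% in AAV8-Null. The log2 fold change was 0.14 (SE 0.13, adjusted p = 0.736, edgeR), and -0.042 without AAV8-IGFBP1 replicate 2, which had the highest level. Hepatocyte markers were near 0, with a sum over 6 genes of 0.750 to 2.17 CPM in AAV8-IGFBP1 and 0.608 to 2.57 CPM in AAV8-Null.

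Selenow encodes selenoprotein W, a small thioredoxin-like protein of muscle. It had 697, 682 and 650 CPM in AAV8-IGFBP1 replicates 1 to 3, and 598, 709, 670 and 647 CPM in AAV8-Null replicates 1 to 4. The ranges overlapped almost in full, with a log2 fold change of 0.04 (SE 0.07, adjusted p = 0.858, edgeR). Selenon and Selenom encode selenoproteins of the endoplasmic reticulum, and selenoprotein N takes part in calcium handling there. Selenon had 4.32, 3.84 and 3.14 CPM in AAV8-IGFBP1, and 4.17, 5.57, 4.06 and 3.33 CPM in AAV8-Null, with a log2 fold change of -0.19 (SE 0.19, adjusted p = 0.738, edgeR). Selenom had 4.93, 3.82 and 3.72 CPM in AAV8-IGFBP1, and 4.89, 4.37, 4.37 and 4.82 CPM in AAV8-Null, with a log2 fold change of -0.15 (SE 0.13, adjusted p = 0.704, edgeR). Neither separated the groups, and AAV8-IGFBP1 replicate 1 was slightly above the AAV8-Null range for Selenom.

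Dio2 encodes the type 2 deiodinase and is also expressed in brown adipocytes. It had 1.61, 6.26 and 1.82 CPM in AAV8-IGFBP1 replicates 1 to 3 (74, 259 and 82 counts), and 1.85, 1.70, 2.23 and 1.22 CPM in AAV8-Null replicates 1 to 4 (93, 88, 85 and 50 counts). Only AAV8-IGFBP1 replicate 2 lay above the AAV8-Null range. The log2 fold change of 0.88 (SE 0.50, adjusted p = 0.537, edgeR) had the highest value and the widest error of the 10, and it was -0.029 without that library.

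The library with high Dio2 was also the highest for 3 of the 4 brown adipocyte markers, Ucp1, Cidea and Elovl3, and the lowest for the fourth, Cox8b. Ucp1, the uncoupling protein gene of brown fat, had 12.4, 123 and 9.98 CPM in AAV8-IGFBP1 replicates 1 to 3, and 10.4, 4.43, 2.30 and 2.02 CPM in AAV8-Null replicates 1 to 4. Cidea, a lipid droplet gene, had 6.12, 60.9 and 4.94 CPM in AAV8-IGFBP1, and 18.4, 10.3, 5.45 and 4.60 CPM in AAV8-Null. Cox8b, a cytochrome oxidase subunit gene, had 146, 124 and 163 CPM in AAV8-IGFBP1, and 171, 148, 125 and 144 CPM in AAV8-Null. Elovl3 had 0.412, 5.66 and 0.664 CPM in AAV8-IGFBP1, and 0.119, 0.116, 0.0524 and 0 CPM in AAV8-Null. In counts this was 19, 234 and 30 against 6, 6, 2 and 0. Its groups did not overlap, as for 12.3% of genes tested, and it did not pass (log2 fold change 4.83, SE 1.23, adjusted p = 0.191, edgeR). Over the 4 brown adipocyte markers the summed level was 165 to 313 CPM in AAV8-IGFBP1 and 133 to 200 CPM in AAV8-Null, 0 of 4 were called, and none was at 0 in every library. Cox8b made up most of this sum in every library except AAV8-IGFBP1 replicate 2, so the sum mainly followed Cox8b elsewhere. The 8 general adipocyte markers summed to 304 to 1472 CPM in AAV8-IGFBP1, with the highest in replicate 2, and 243 to 486 CPM in AAV8-Null. AAV8-IGFBP1 replicate 2 was likewise the highest of the 7 libraries for Gpx1, Gpx3, Gpx4, Selenop and Igfbp1.

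With the brown adipocyte level as a covariate, a fit added after the values were seen, the edgeR log2 fold change was -0.42 for Dio2, 0.58 for Gpx3 (adjusted p = 0.261) and 0.12 for Gpx4 (adjusted p = 0.751). Without AAV8-IGFBP1 replicate 2, it was 0.61 for Gpx3 and 0.17 for Gpx4 (adjusted p = 0.386). The part of fat cells in these levels was not tested further. Slow fibre markers also varied, with 8 genes summing to 282, 549 and 897 CPM in AAV8-IGFBP1 replicates 1 to 3, and 2029, 656, 1291 and 1838 CPM in AAV8-Null replicates 1 to 4. Their mean log2 level did not pass (exact permutation p = 0.0857, two-sided), and their part in the Gpx3 difference was not tested beyond the covariate fit, in which Gpx3 had a log2 fold change of 0.62 (adjusted p = 0.355, edgeR).

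**Figure D2:**
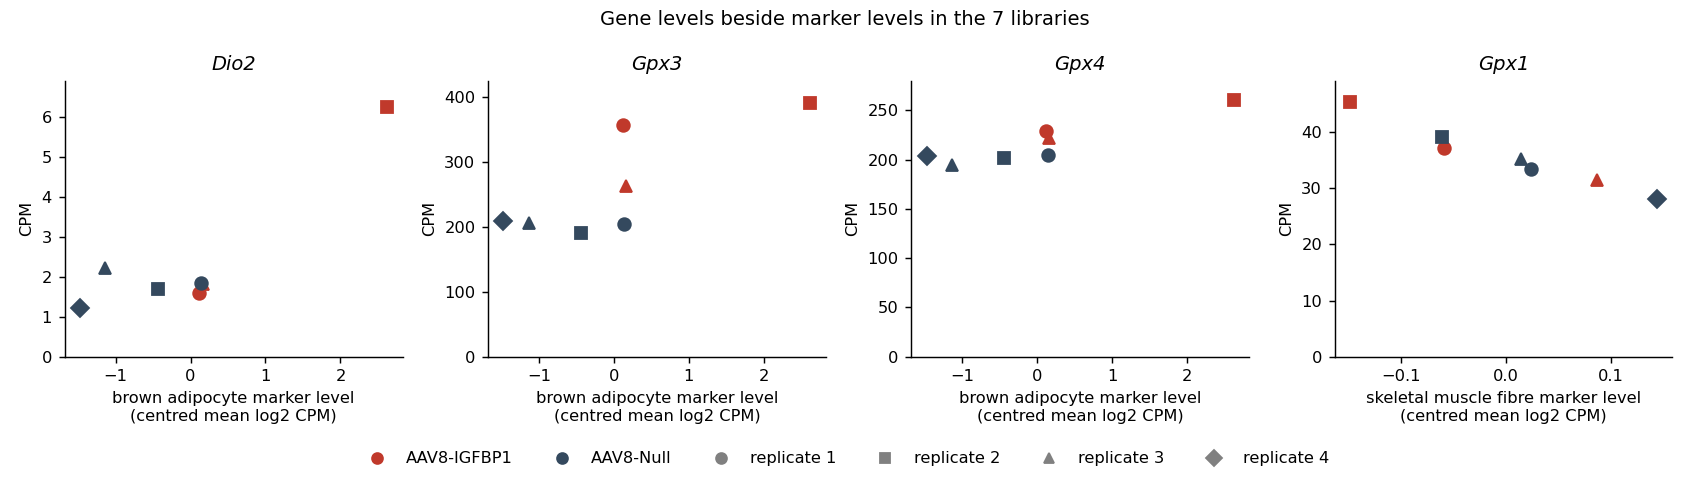
CPM of Dio2, Gpx3 and Gpx4 against the brown adipocyte marker level, and of Gpx1 against the skeletal muscle fibre marker level, 1 point per library, with AAV8-IGFBP1 in red, AAV8-Null in dark blue and symbols for the replicate number. AAV8-IGFBP1 replicate 2 lies alone at a brown adipocyte level of 2.62, and Gpx1 is lower where the fibre level is higher.

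**Figure D3:**
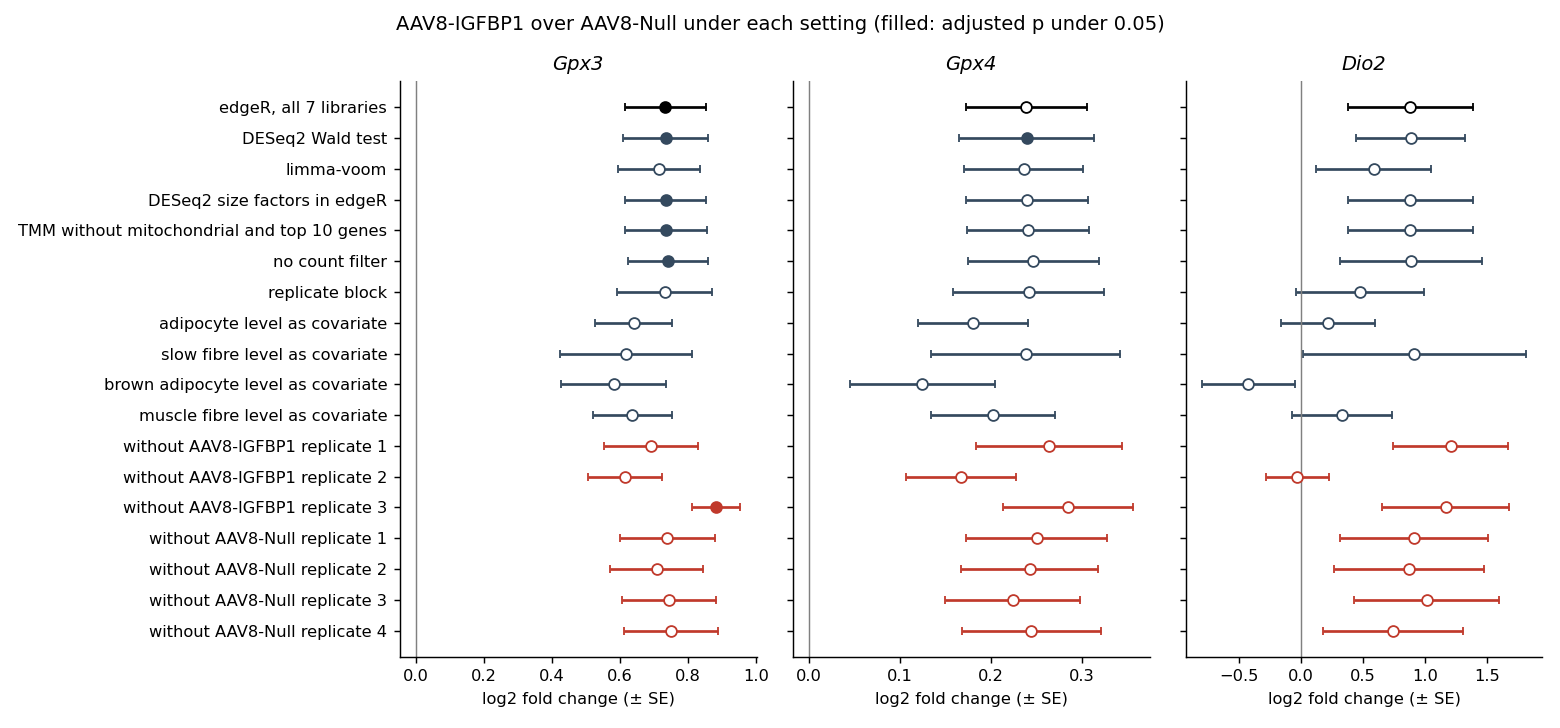
Log2 fold change of AAV8-IGFBP1 over AAV8-Null with its SE for Gpx3, Gpx4 and Dio2 under each way of fitting, black for edgeR on all 7 libraries, dark blue for other methods and covariates, red where 1 library is left out, and filled where the adjusted p is under 0.05. Gpx3 lies between 0.58 and 0.88 throughout, and Dio2 is at -0.029 without AAV8-IGFBP1 replicate 2.

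Levels of different genes are compared as CPM per kilobase of exon. On that scale Selenow was the most abundant, with a mean of 919 CPM per kilobase in AAV8-IGFBP1 and 892 in AAV8-Null, and Gpx3 had 185 in AAV8-IGFBP1 and 111 in AAV8-Null. In AAV8-Null, Gpx4 at 117 CPM per kilobase was slightly above Gpx3. In AAV8-IGFBP1 the order was the other way round, with Gpx4 at 138 CPM per kilobase. Their ranges over all 7 libraries overlapped, at 105 to 215 for Gpx3 and 113 to 151 for Gpx4.

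Below these came the carrier Selenop with 44.6 CPM per kilobase in AAV8-IGFBP1 and 40.6 in AAV8-Null, and then Gpx1 with 26.4 in AAV8-IGFBP1 and 23.6 in AAV8-Null. The Selenop and Gpx1 ranges did not overlap, at 34.8 to 55.0 and 19.5 to 31.6 over the 7 libraries. Txnrd1 had 10.3 CPM per kilobase in AAV8-IGFBP1 and 10.9 in AAV8-Null. Selenom (2.81 in AAV8-IGFBP1 and 3.11 in AAV8-Null) and Txnrd2 (2.90 in AAV8-IGFBP1 and 2.79 in AAV8-Null) could not be ordered, since their ranges overlapped. Selenon had 1.04 CPM per kilobase in AAV8-IGFBP1 and 1.18 in AAV8-Null. Dio2 was the least abundant, at 0.555 in AAV8-IGFBP1 and 0.301 in AAV8-Null, although its range reached 1.08 and so overlapped that of Selenon.

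Some of the 10 varied together over the 7 libraries. Gpx3 and Gpx4 had a Pearson r of 0.938 on log2 CPM, and 0.914 without AAV8-IGFBP1 replicate 2. Gpx3 and Txnrd1 had -0.749, and -0.753 without that library. Gpx1 had r = -0.989 with the skeletal muscle fibre level, which itself ranged from -0.15 to 0.14, and -0.982 without AAV8-IGFBP1 replicate 2. That level is an unweighted mean over 12 genes and did not follow their summed CPM. The sum was highest in AAV8-IGFBP1 replicate 1 (183232 CPM, level -0.059) and lowest in AAV8-Null replicate 1 (154517 CPM, level 0.024). The r of Gpx1 and Selenop was 0.806 over 7 libraries and 0.543 over the 6 without AAV8-IGFBP1 replicate 2. That of Dio2 with the brown adipocyte level was 0.868 over 7 libraries and 0.297 over those 6. Both were lower without that library, and the r of Dio2 fell further. With the same level, Gpx4 had r = 0.908 and Gpx3 r = 0.769 over 7 libraries, and neither was examined without that library. All are descriptions over few points that share libraries, scaling and the group difference.

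Among the 7096 genes searched, all at a mean log2 CPM no lower than 3, the 3 most like Gpx3 over the 7 libraries were Nr1h3 (r = 0.989), Xdh (r = 0.970, range 0.944 to 0.986 with each library left out) and Grk3 (r = 0.954). Nr1h3 encodes a nuclear receptor that senses oxysterols, Xdh xanthine dehydrogenase and Grk3 a kinase of G protein-coupled receptors. The 3 most like Gpx4 were Gpn3 (r = 0.987), H2-T22 (r = 0.979) and Irgm1 (r = 0.976). H2-T22 belongs to the histocompatibility genes, whose near-identical copies may share reads. The 3 most like Dio2 were Lsm4 (r = 0.965), Tbc1d13 (r = 0.955) and Erap1 (r = 0.952), and their r fell to 0.847, 0.709 and 0.541 without AAV8-IGFBP1 replicate 2.

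Other selenoproteins had fold changes close to 0 on the log2 scale. Of 14 listed, 10 were tested and 0 were called by edgeR, DESeq2 or limma-voom, with 0 at an unadjusted p under 0.05 and log2 fold changes of -0.15 to 0.14 (median 0.02). The lowest p among them belonged to Txnrd3, a thioredoxin reductase of testis (log2 fold change 0.14), Selenoo, a mitochondrial pseudokinase (-0.11), and Selenof, of the endoplasmic reticulum (0.08). Gpx2, Dio1 and Selenov had 0 counts in all 7 libraries, which allows up to 0.0580 to 0.0785 CPM per library, a limit that covers counting error only. Dio3, the deiodinase that inactivates thyroid hormone, had 10, 5 and 10 counts in AAV8-IGFBP1, and 3, 6, 5 and 4 counts in AAV8-Null, and was not tested.

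**Figure D4:**
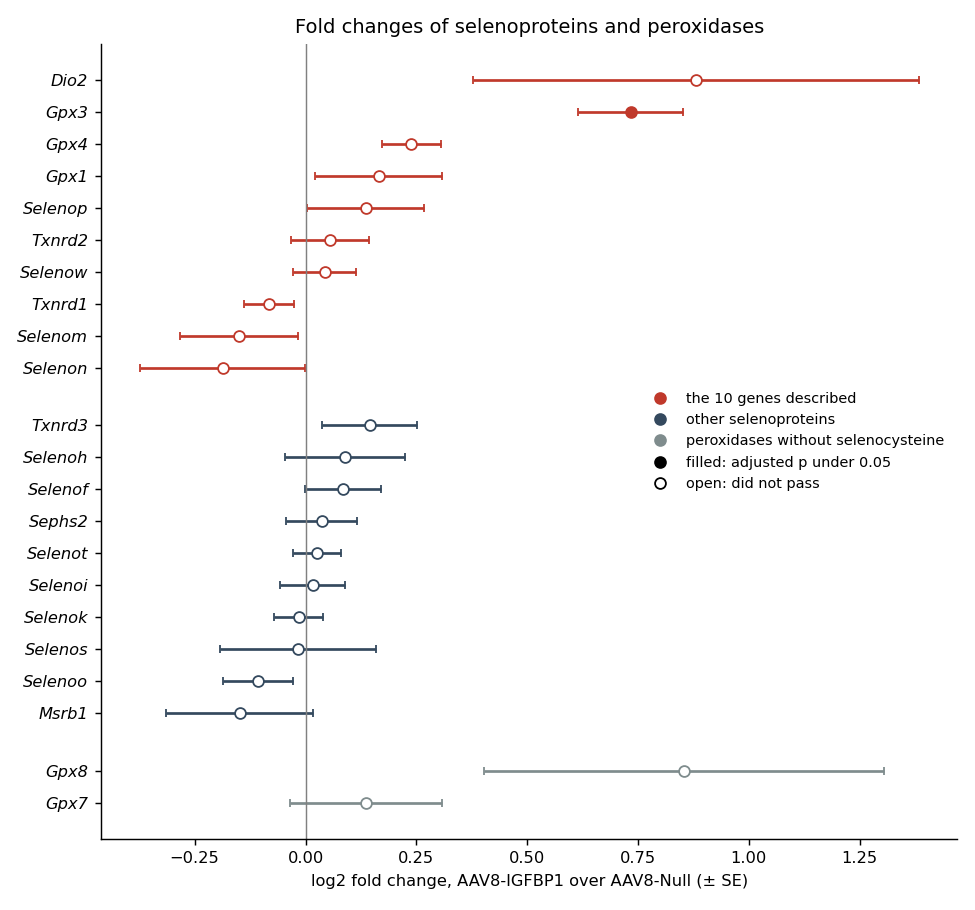
Log2 fold change of AAV8-IGFBP1 over AAV8-Null with its SE for the 10 genes (red), the 10 other selenoproteins tested (dark blue) and the 2 glutathione peroxidases without selenocysteine that were tested (grey), filled where the edgeR adjusted p is under 0.05. Gpx3 is the filled point, at 0.73, and the other selenoproteins lie between -0.15 and 0.14.

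Of the 4 glutathione peroxidases listed that carry cysteine in place of selenocysteine, Gpx7 and Gpx8 were tested, while Gpx5 and Gpx6 had 0 counts in all 7 libraries. Gpx8, an enzyme of the endoplasmic reticulum, had 3.52, 9.26 and 2.61 CPM in AAV8-IGFBP1 replicates 1 to 3, and 3.66, 3.13, 2.12 and 2.36 CPM in AAV8-Null replicates 1 to 4. As for Dio2, AAV8-IGFBP1 replicate 2 alone lay above the rest. The log2 fold change was 0.85 (SE 0.45, adjusted p = 0.501, edgeR), and 0.12 without that library. Gpx7 had a log2 fold change of 0.14. Neither had an unadjusted p under 0.05, and neither was called by DESeq2 or limma-voom.

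The genes that make and insert selenocysteine or take up selenoprotein P gave 0 calls among 9 tested of 11, by edgeR, DESeq2 and limma-voom, with 1 at an unadjusted p under 0.05 (12.6% of all genes tested) and a median of 0.04. That gene was Eefsec, which encodes the elongation factor that delivers selenocysteine. It had 5.40, 4.69 and 4.29 CPM in AAV8-IGFBP1, and 3.99, 3.29, 3.85 and 4.01 CPM in AAV8-Null. All AAV8-IGFBP1 libraries lay above, as for 6.33% of genes tested, with a log2 fold change of 0.34 (SE 0.13, adjusted p = 0.326, edgeR). The seryl-tRNA synthetase gene Sars had a log2 fold change of -0.13 and Pstk, the kinase that prepares its tRNA for selenium, -0.15.

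Thioredoxins, peroxiredoxins and glutaredoxins gave 0 calls among 16 tested by edgeR, DESeq2 and limma-voom, 1 (Prdx5) at an unadjusted p under 0.05 and a median of -0.04. Thioredoxin itself (Txn1), the substrate of Txnrd1, had a log2 fold change of 0.18, and the peroxiredoxins Prdx5 and Prdx6 had -0.18 and -0.19. Genes of glutathione synthesis and transfer gave 0 calls among 19 tested of 20 by edgeR, 0 by limma-voom and 1 by DESeq2, with 2 (Mgst3 and Gstm2) at an unadjusted p under 0.05 in edgeR, beside 12.6% of all genes tested. Chac1, which degrades glutathione, had the highest log2 fold change of them (1.39, SE 0.60, adjusted p = 0.427, edgeR). It had 87.6, 34.4 and 41.5 CPM in AAV8-IGFBP1 replicates 1 to 3, and 9.46, 37.9, 12.7 and 22.9 CPM in AAV8-Null replicates 1 to 4, so the groups overlapped. The transferase genes Gstm2 and Mgst3 had log2 fold changes of 0.58 and -0.24, and neither passed in edgeR. Gstm2 was the gene that DESeq2 called (adjusted p = 0.0451), and its reads may be shared with its close paralogs.

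Catalase, superoxide dismutases and the NRF2 regulators and targets gave 0 calls among 8 tested by edgeR, DESeq2 and limma-voom, with 1 (Nqo1) at an unadjusted p under 0.05. Nqo1, a quinone reductase and a known NRF2 target, had 12.2, 12.5 and 11.7 CPM in AAV8-IGFBP1, and 13.9, 15.4, 13.2 and 14.4 CPM in AAV8-Null. All AAV8-IGFBP1 libraries lay below, as for 6.01% of genes tested (log2 fold change -0.24, SE 0.07, adjusted p = 0.235, edgeR). Cat had a log2 fold change of 0.15 and Sod2 -0.12. Among the lipid peroxidation genes, the class of reactions that GPX4 opposes, 0 of 6 tested were called by edgeR, DESeq2 or limma-voom, and 0 had an unadjusted p under 0.05. Their lowest p values were those of the lipoxygenase genes Alox12 (-0.47) and Alox5 (-0.42) and of Dhodh (-0.07), all log2 fold changes.

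Thyroid hormone genes, the pathway that Dio2 feeds, held the lowest adjusted p of these lists. None of 13 passed in edgeR or limma-voom, 4 had an unadjusted p under 0.05 (12.6% of all genes tested did), and DESeq2 called 3 (3.28% of all genes). Of the 13 log2 fold changes, 8 were above 0 and 5 below, with a median of 0.03. All AAV8-IGFBP1 libraries lay above in 2 genes and below in 2, beside 12.3% of genes tested without overlap. The groups overlapped for the rest, among them Thrsp, Ucp3 and Me1 (adjusted p = 0.752, 0.651 and 0.639, edgeR). Hr, a nuclear receptor corepressor gene induced by thyroid hormone, had 138, 111 and 152 CPM in AAV8-IGFBP1 replicates 1 to 3, and 79.9, 81.2, 92.6 and 68.9 CPM in AAV8-Null replicates 1 to 4. The groups did not overlap, and the log2 fold change was 0.72 (SE 0.12, adjusted p = 0.0524, edgeR). Klf9, a transcription factor gene that responds to thyroid hormone and glucocorticoids, had 192, 183 and 199 CPM in AAV8-IGFBP1, and 126, 141, 148 and 161 CPM in AAV8-Null. Here too every AAV8-IGFBP1 library lay above (log2 fold change 0.41, SE 0.08, adjusted p = 0.0711, edgeR).

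Wsb1, whose product marks the type 2 deiodinase for degradation, lay on the other side of 0. It had 4.88, 4.28 and 4.38 CPM in AAV8-IGFBP1, and 8.16, 7.11, 5.84 and 7.15 CPM in AAV8-Null. The groups did not overlap, as for 12.3% of genes tested (log2 fold change -0.65, SE 0.13, adjusted p = 0.0670, edgeR). These 3 genes were the ones DESeq2 called, with adjusted p-values of 5.07e-06 for Hr, 0.00119 for Klf9 and 0.00193 for Wsb1. Over the alternatives the adjusted p ran up to 0.308 for Hr, 0.300 for Klf9 and 0.334 for Wsb1. In edgeR, Hr passed without AAV8-IGFBP1 replicate 2 (adjusted p = 0.0268), Wsb1 without AAV8-Null replicate 3 (adjusted p = 0.0485) and Klf9 without AAV8-Null replicate 4 (adjusted p = 0.0484). The remaining gene with an unadjusted p under 0.05 was the thyroid hormone transporter gene Slc16a10 (log2 fold change -0.23, adjusted p = 0.186, edgeR). In the library with high Dio2, AAV8-IGFBP1 replicate 2, Hr and Klf9 were the lowest of their group.

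**Figure D5:**
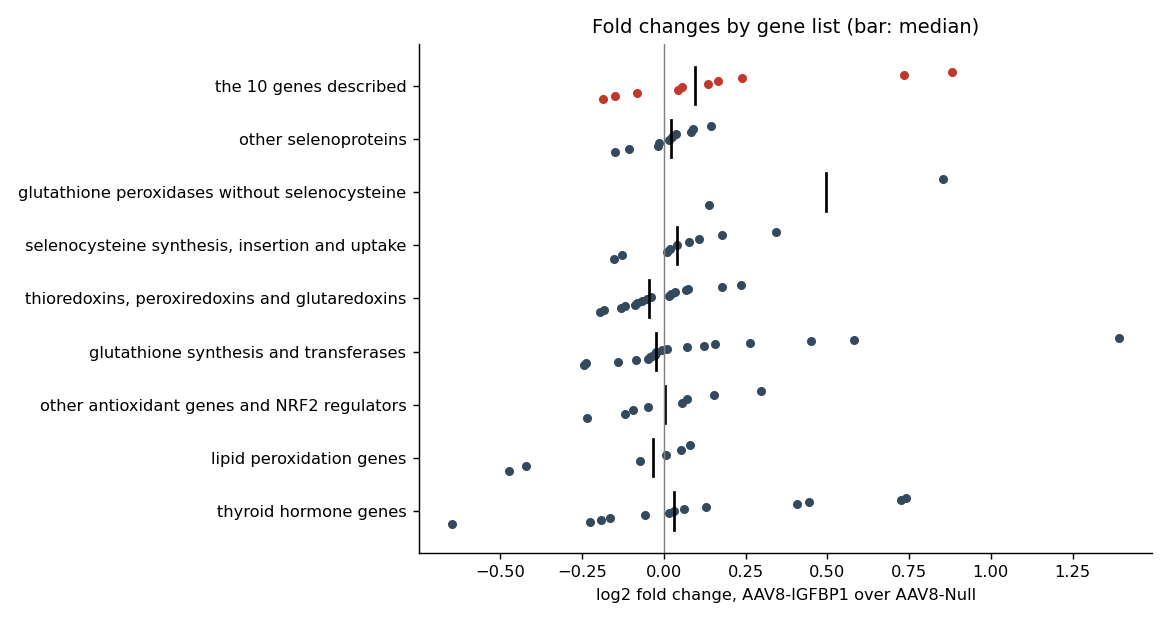
Log2 fold change of AAV8-IGFBP1 over AAV8-Null for each tested gene, by list, with the 10 genes in red and a vertical bar at each list's median. Most lists lie around 0; the 10 genes have a median of 0.10 and the thyroid hormone genes run from -0.65 to 0.74.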

How the data were processed

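Per the labels' protocols, a Universal Plus mRNA-Seq kit was used for libraries, after RNA isolation with an RNeasy Mini Kit. From them the authors made the single deposited table, in the unit of estimated counts, with gene symbols as rows and the 7 libraries as columns. The submitters' processing notes name GRCm39 and, without roles, Salmon 1.10.1, STAR 2.7.9a, R 4.2.2, Trim Galore 0.6.7 and cutadapt 3.4. A strand setting for the counting is not given in the sources used here. Selenop (Ccdc152), Txnrd1 (Eid3, Gm38560) and Dio2 (Gm26512) could share reads with the overlapping genes in brackets (RefSeq, GRCm38.p6).

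Counts were rounded and tested with edgeR 4.0.16 (R 4.3.3): filterByExpr (minimum count 10, minimum total 15), TMM scaling, glmQLFit with robust estimation, glmQLFTest on group, and Benjamini-Hochberg adjustment over 14935 genes at 0.05. The approximate SE is the size of the log2 fold change over the square root of F. Log2 CPM used a prior count of 2. DESeq2 1.42.0 and limma 3.58.1 voom were alternatives. Exon lengths and codons came from GENCODE M21, a release of another build than the counts, so no positions are given. Replicates of a group differed by 22.4 to 60.5 chi-square per degree of freedom, so none was taken for a repeat of another. The exact permutation tests took all 35 splits (smallest p 0.0286) and were not adjusted over marker lists. The members, the 8 gene lists and the 10 marker lists were chosen with earlier results of these data known. The genes named are the members and up to 3 per list with the lowest p. For the 3 members with the lowest p, the 3 most alike of 7096 or 7097 genes searched per member are also named. So is a gene that a count of 5 or fewer singles out. Thrsp, Ucp3 and Me1 of the thyroid hormone list are named outside this rule.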

Additional observations from a re-analysis of the deposited data

How the results depend on the processing

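With 17 alternatives for each member and 1 more for Gpx4 (pseudogene counts added), 147 of the members' fold changes kept direction and side of the threshold, 11 changed sign, 12 lost the call (all Gpx3) and 1 gained it (Gpx4 with DESeq2). The count of genes called, 83, became 451 with DESeq2 (216 higher, 235 lower), 306 with no count filter and 19 with the replicate block. It was 31 with the slow fibre covariate, 44 with the brown adipocyte covariate, and 19 to 86 with 1 library left out. The block fit used replicates 1 to 3 of each group, so AAV8-Null replicate 4 was left out of it. Leaving out that library alone, without the block, gave 86 genes. The count of members called, 1, became 2 with DESeq2, 0 with limma-voom, the replicate block and each of the 4 covariates (adipocyte and slow fibre, and brown adipocyte and muscle fibre, which were added after the data were seen), and 0 to 1 with 1 library left out. In log2 CPM deviations from the group mean, same-numbered libraries had correlations of -0.098, 0.068 and -0.057, and differently numbered ones -0.105 to 0.149. So few pairs cannot settle whether replicate numbers pair the libraries. With the block, which left out AAV8-Null replicate 4, Gpx3 had an adjusted p of 0.178 (edgeR). Glutathione genes called became 1 with DESeq2. Thyroid hormone genes called became 3 with DESeq2 and with no filter, 1 with the adipocyte or muscle fibre covariate, and 0 to 1 with 1 library left out.

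Sign changes, none in a call, were these log2 fold changes. With the slow fibre covariate they were Gpx1 -0.090, Selenop -0.024, Selenow -0.098, Selenof -0.078, Gpx7 -0.22, Selenoo 0.054, Prdx5 0.0034, Sod2 0.090 and Dhodh 0.11. With the brown adipocyte covariate they were Gpx1 -0.11, Selenop -0.12, Txnrd2 -0.0047, Dio2 -0.42 and Gpx8 -0.32. Selenop was -0.0081 with the adipocyte and -0.0075 with the muscle fibre covariate. With 1 library left out, the ranges were -0.042 to 0.29 for Selenop, -0.029 to 1.20 for Dio2, -0.0056 to 0.23 for Gpx7 and -0.12 to 0.0054 for Dhodh. The cause was not tested. Dio2 (50 to 259 counts) had an SE of 0.50 with all 7 libraries and 0.25 without AAV8-IGFBP1 replicate 2.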
